A study of Mus musculus with 5 samples.

Results

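The Hox cluster genes were followed in striatal RNA of mice with a Huntington's disease (HD) transgene, with and without overexpressed miR-196a. Every probe whose platform gene symbol was Hoxa, Hoxb, Hoxc or Hoxd followed by a number was taken, which gave 40 of 26423 probes and 38 of the 17742 genes named on the array. Hoxb3 and Hoxc8 had 2 probes each.

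The HD_miR196a group held 3 mice that carried both the HD transgene and a transgene for the miR-196a precursor. The HD group held 2 mice with the HD transgene alone. That HD transgene, shared by all 5 mice, encodes GFP fused to the product of human HTT exon 1, whose repeat has 84 CAG units, and each of the transgenes was driven by a human ubiquitin promoter, per the labels' protocols. All mice were FVB males aged 12 months, and mice lacking the HD transgene were not analysed here. Each value combines 2 technical repeats of a mouse, made by the authors, on a single-colour Cy5 array, and the mouse is the replicate. The level of mature miR-196a was not analysed here, and no probe is named for Mir196a-1 or Mir196a-2.

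Hox genes encode homeodomain transcription factors that give cells of the embryo their position along the body axis. They lie in the Hoxa, Hoxb, Hoxc and Hoxd clusters, on mouse chromosomes 6, 11, 15 and 2, and genes with low paralogue numbers are used further forward than those with high numbers. The forebrain, which includes the striatum, lies in front of the Hox domains, and Polycomb proteins are known to keep Hox clusters silent where they are not used. The miR-196 genes are themselves part of the Hox clusters, and miR-196 is known to direct cleavage of Hoxb8 mRNA and to repress Hoxc8, Hoxd8 and Hoxa7.

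Mature miR-196 and miR-10, both encoded within the clusters, are shown because their seeds (bases 2 to 8, in capitals), which pair with target mRNAs, define which of them act on the same sites. The sequences, 5′ to 3′, are those of RefSeq on GRCm38.p6.
mmu-miR-196a-5p: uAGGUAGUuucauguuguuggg
mmu-miR-196b-5p: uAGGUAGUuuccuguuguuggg
mmu-miR-10a-5p: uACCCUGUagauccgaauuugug
mmu-miR-10b-5p: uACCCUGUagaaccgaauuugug
The same miR-196a-5p is encoded at chr11:96265187-96265208, plus strand, between Hoxb13 and Hoxb9, and at chr15:102973365-102973386, plus strand, between Hoxc10 and Hoxc9. The miR-196b-5p sequence lies at chr6:52230129-52230150, minus strand, between Hoxa9 and Hoxa10. From its 5′ end, miR-196b-5p carries the substitution A12C relative to miR-196a-5p, outside the seed. Among 1679 mature mouse microRNA names in that table, these were the 2 that hold this seed. The miR-10 pair, inside Hoxb3 (chr11:96317186-96317208, plus strand) and inside Hoxd3 and Hoxd4 (chr2:74726074-74726096, plus strand), shares another seed and differs by U12A. The labels do not say which miR-196a precursor the transgene carries.

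Most Hox probes gave signals as low as those of genes that are silent in striatum. Olfactory receptor genes (Olfr), mostly silent in brain, served as the background, and their 544 probes had log2 intensities with a median of 4.99 after quantile normalization and a floor of 1. Their 95th percentile was 8.31. Hox probes had a median of 5.65, 48 vomeronasal receptor probes, another mostly silent family, 5.74, and all probes 7.42. Of the 40 Hox probes, 24 were above the Olfr median and 4 (10%) above the Olfr 95th percentile, against 8.33% of vomeronasal and 39.6% of all probes. Probes differ in how brightly they bind, so these positions describe the array and do not rank the genes. Whether a signal within the Olfr range comes from Hox mRNA was not tested.

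The Hoxa cluster had the smallest share of probes above the Olfr median. Of 10 Hoxa probes, 4 were above the Olfr median, against 7 of 11 for Hoxb, 7 of 10 for Hoxc and 6 of 9 for Hoxd. By paralogue number, 8 of 12 probes of groups 1 to 4, 9 of 12 of groups 5 to 8 and 7 of 16 of groups 9 to 13 were above it. The 4 probes above the 95th percentile were Hoxb1, Hoxd3, Hoxd10 and Hoxd13, so they came from both ends of the clusters. Hoxd13 lay just inside that limit, at 8.40, and the brighter Hoxb3 probe just outside, at 7.80. Hoxa13, Hoxb4, Hoxb8 and Hoxd1 had at least 1 mouse with a deposited intensity below 1, together 7 of the 200 Hox values.

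**Figure D1:**
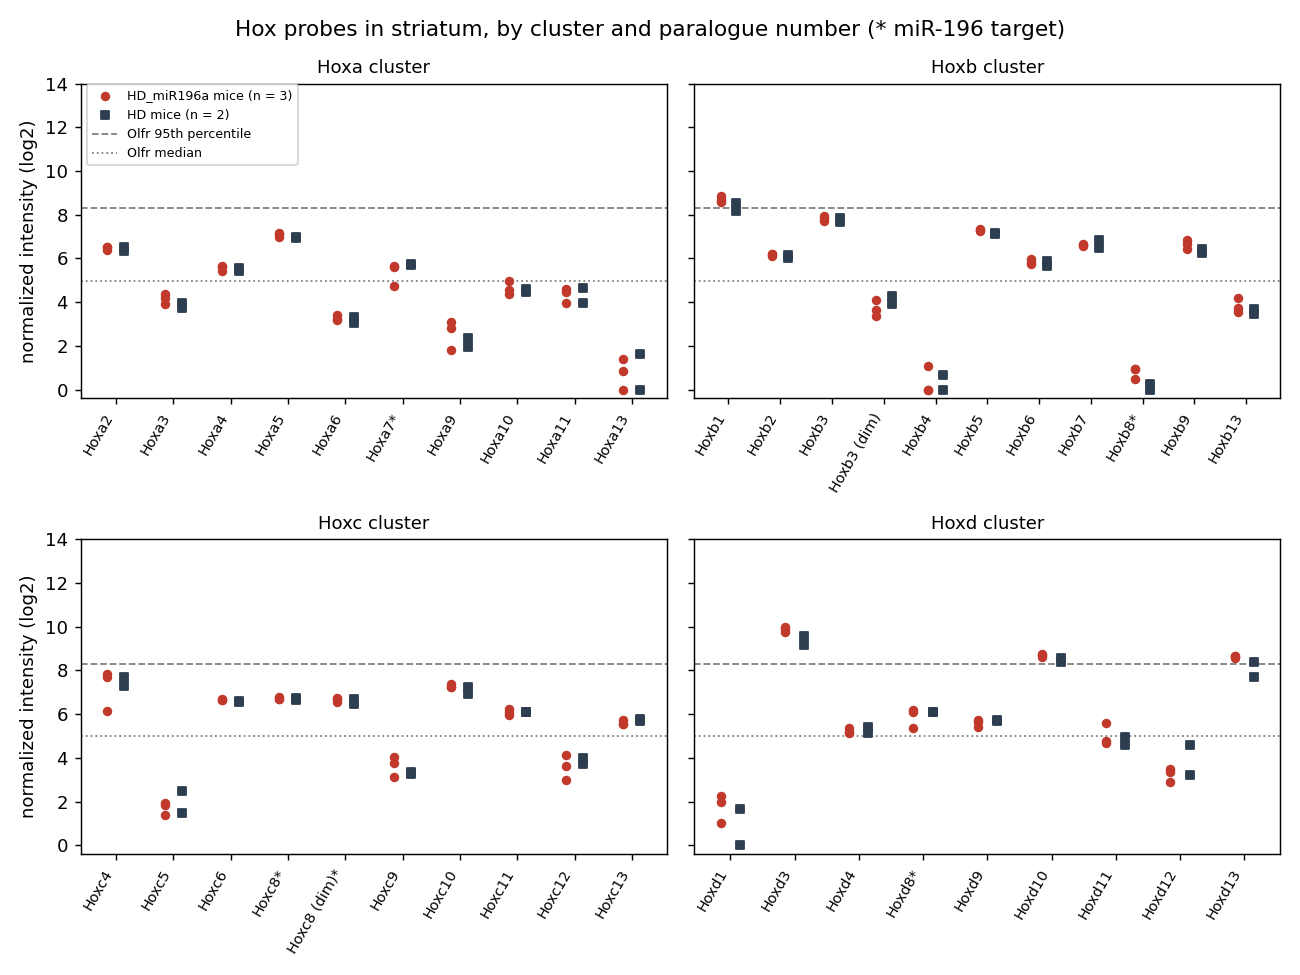
Normalized intensity on the log2 scale (vertical axis) of each Hox probe, by cluster and paralogue number, with 1 point per mouse (circles HD_miR196a, squares HD) and the median (dotted, 4.99) and 95th percentile (dashed, 8.31) of 544 Olfr probes. Stars mark the named miR-196 targets, and 4 probes (Hoxb1, Hoxd3, Hoxd10 and Hoxd13) have means above the dashed line.

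The labelled tissue was checked against markers of medium spiny neurons, the main striatal neuron type. Of 10 probes for 8 such genes, 8 were above the Olfr 95th percentile, while Drd2, a receptor of the indirect pathway, measured at most 2.04 on the log2 scale in any mouse. Their summed signal was 75322 to 83673 in HD_miR196a mice and 60457 to 65138 in HD mice, and 8 of the 10 were higher in HD_miR196a mice. In bulk tissue, fewer cells of a type and less RNA per cell cannot be told apart. The genes listed as hindbrain and spinal cord markers had 0 of 6 probes above the Olfr 95th percentile. Their summed signal was 402 to 431 in HD_miR196a mice and 314 to 367 in HD mice. Much of these sums came from Slc6a2, at 7.82, 7.83 and 7.91 in HD_miR196a mice and 7.30 and 7.58 in HD mice (log2). Of the 6 probes, 5 were higher in HD_miR196a mice, and Lbx1 was at or within 2 log2 units of the floor in all mice. Genes of cortical neurons, next to the striatum, summed to 15510 to 36940 in HD_miR196a mice and to 15432 to 39549 in HD mice, with mouse 1 of each group lowest, and 5 of 9 were higher in HD_miR196a mice. Oligodendrocyte genes were higher on 5 of 5 probes, with sums of 36453 to 46021 in HD_miR196a mice and 29979 to 36330 in HD mice. The choroid plexus gene Ttr measured 10.64, 7.09 and 7.32 in HD_miR196a mice and 7.41 and 7.70 in HD mice. On that gene HD_miR196a mouse 1 stood apart, while Kl and Folr1, also choroid plexus markers, did not set it apart. Kl and Folr1 differed by -0.0045 and -0.13 between the groups. The part of these differences in the Hox values below was not tested.

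HD_miR196a mice were set against HD mice to see which Hox transcripts differ with added miR-196a, and for its known targets whether they are lower. No Hox probe passed the test. With limma, 0 of 26423 probes (0%) had a Benjamini-Hochberg adjusted p under 0.05, and the smallest adjusted p among Hox probes was 0.979. At an unadjusted p under 0.05 there were 1099 probes (4.16%), among them 2 of the 40 Hox probes (5%), Hoxb8 and Hoxd3. Both were higher in HD_miR196a mice, where the share over all probes was 2.11%, against 2.05% lower. With 3 and 2 mice an exact permutation test can split them 10 ways, and 0.1 is the smallest p it allows, so none is given for single probes. Nothing in the labels says that the mice came from separate litters, so p-values measure only the spread between these mice.

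The named miR-196 targets lay on both sides of 0. Of the 5 probes of Hoxa7, Hoxb8, Hoxc8 and Hoxd8, 3 were higher and 2 lower in HD_miR196a mice, with a median log2 difference of 0.02, or -0.13 with no scaling, a setting in which the median of all probes was -0.20. For the 35 other Hox probes the median was 0.09, with 25 higher, and over all probes it was -0.0023. Counted by gene, with the brightest probe of each, the target median was -0.09. Over the 5 probes, the median turned to -0.05 without HD mouse 1 and to -0.03 without HD mouse 2. All 5 probes lay below the Olfr 95th percentile, and each is given next.

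Hoxb8, the target with the best known miR-196 site, was near zero in every mouse. Its deposited intensity was 1.5, 1.99 and 1.48 in the HD_miR196a mice, in order of their numbers, against 1.02 and -0.56 in the HD mice. The groups did not overlap, at a mean level that was at percentile 2.21 of the Olfr probes. On the log2 scale the probe averaged 0.78 ± 0.25 in the 3 HD_miR196a mice and 0.13 ± 0.18 in the 2 HD mice (SD), a difference of 0.65 ± 0.19 (SE, unadjusted p = 0.0196, limma adjusted p = 0.979). That difference was 0.12 with an offset of 16 added before the logarithm and 0 with the floor at the Olfr median, so its size depends on how values near zero are treated.

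Both Hoxc8 probes gave close to equal values in the groups. The brighter one measured 97.5, 108.5 and 98.6 in HD_miR196a mice and 113.9 and 107.5 in HD mice as deposited intensity, and the ranges overlapped. After normalization it averaged 6.72 ± 0.07 in the 3 HD_miR196a mice and 6.70 ± 0.07 in the 2 HD mice (SD), and the 95% interval around their difference ran from -0.23 to 0.28. For the other Hoxc8 probe the difference was 0.08, with an interval from -0.26 to 0.42. Both differences were smaller than their standard errors.

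Hoxa7 and Hoxd8 had lower means in HD_miR196a mice, without overlap for Hoxa7 and with overlap for Hoxd8. Hoxa7 had deposited intensities of 24.5, 48.0 and 48.5 in HD_miR196a mice and of 56.4 and 55.8 in HD mice. After normalization it measured 4.73, 5.62 and 5.65 in HD_miR196a mice against 5.76 and 5.70 in HD mice, so HD_miR196a mouse 1 stood low and the other 2 lay just under the HD mice. Its difference was -0.40, with a 95% interval from -1.23 to 0.44 and an adjusted p of 0.979 (limma). Hoxd8 measured 69.0, 40.6 and 65.6 in HD_miR196a mice and 72.5 and 73.6 in HD mice as deposited intensity, with HD_miR196a mouse 2 low. On the log2 scale it was 6.21, 5.38 and 6.08 in HD_miR196a mice against 6.12 and 6.08 in HD mice, a difference of -0.21 with an interval from -0.93 to 0.52. Hoxa7 differed by -0.10 without HD_miR196a mouse 1, and Hoxd8 by 0.05 without HD_miR196a mouse 2.

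**Figure D2:**
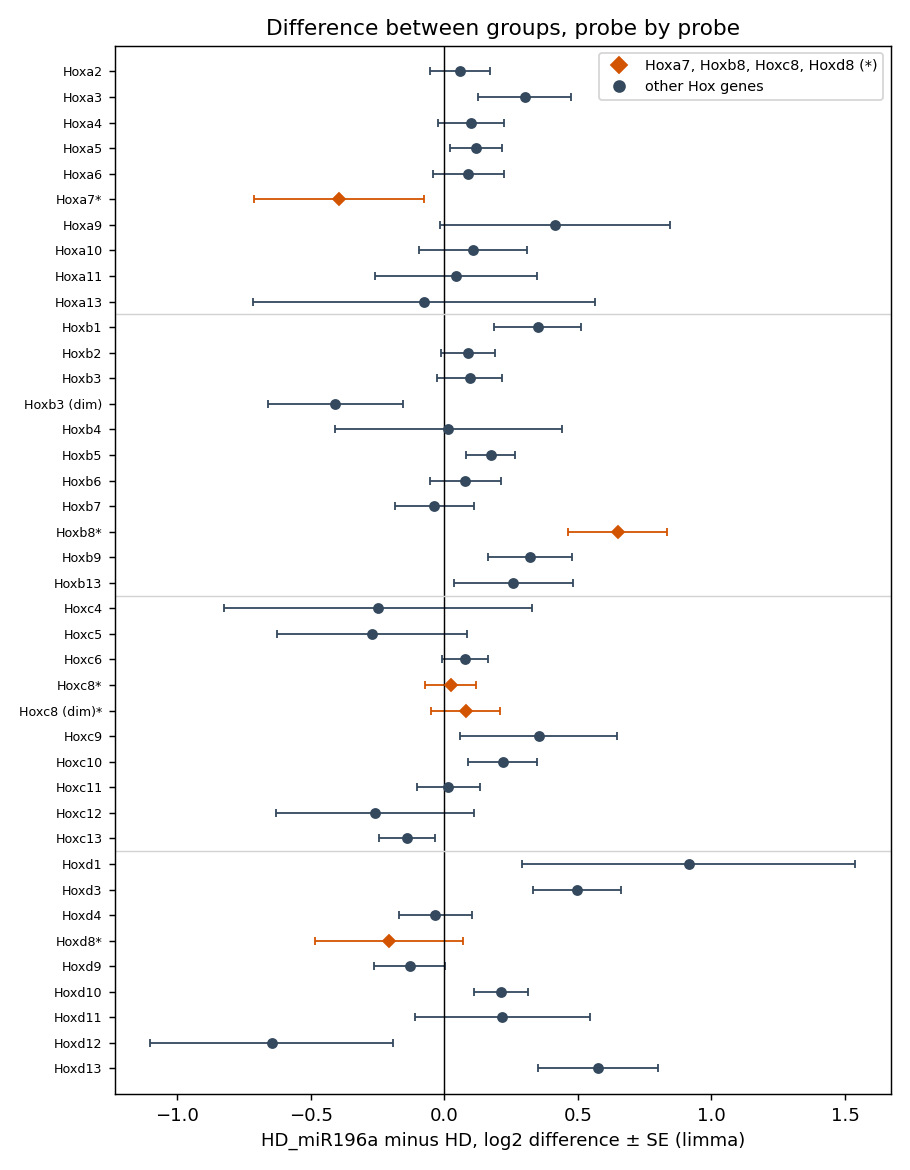
Difference between the groups (HD_miR196a minus HD, log2 scale, horizontal axis) of each of the 40 Hox probes with its limma standard error, by cluster; diamonds are the 5 probes of Hoxa7, Hoxb8, Hoxc8 and Hoxd8 and circles the other 35. Points lie on both sides of 0 for both sets, between -0.65 (Hoxd12) and 0.92 (Hoxd1), and the bars are widest for Hoxa13 and Hoxd1, which lie near the floor.

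Hoxd3, Hoxd13, Hoxb1 and Hoxd10, the 4 probes above the Olfr 95th percentile, were higher in every HD_miR196a mouse than in either HD mouse after quantile normalization, with overlap between groups for all 4 with no scaling, and none passed the test. The limit was applied to the mean of all 5 mice, and Hoxd13 passed it through the HD_miR196a mice, with means of 8.63 in HD_miR196a mice and 8.05 in HD mice, so the shared direction is in part set by that choice and is given as a description. Hoxd3 patterns the hindbrain and neck vertebrae. Its deposited intensity was 893, 900 and 850 in HD_miR196a mice and 627 and 851 in HD mice. After normalization the probe averaged 9.88 ± 0.11 in the 3 HD_miR196a mice and 9.38 ± 0.30 in the 2 HD mice (SD), a difference of 0.50 ± 0.16 (SE, unadjusted p = 0.0313, limma adjusted p = 0.979). In RefSeq the Hoxd3 gene overlaps Hoxd4, Mir10b and Hoxd3os1, and which of these transcripts the probe binds is not given here. Overlap with another gene is recorded there for 20 of 39 Hox genes, among them Hoxd10 (with Hoxd11), Hoxa5 and Hoxb5.

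Hoxd13, a limb and genital patterning gene from the opposite end of that cluster, had deposited intensities of 364, 387 and 367 in HD_miR196a mice and of 224 and 365 in HD mice. HD mouse 1 was low, and HD mouse 2 fell among the HD_miR196a mice in the deposited values. The log2 difference was 0.58 ± 0.22 (SE, adjusted p = 0.979). Hoxb1, which gives segment identity to a part of the hindbrain, had 418, 391 and 373 in HD_miR196a mice and 313 and 405 in HD mice, a log2 difference of 0.35 with an interval from -0.08 to 0.77. For Hoxd10, which acts in hindlimb motor neurons, the values were 379, 404 and 386 in HD_miR196a mice and 368 and 408 in HD mice. Its difference was 0.21, with an interval from -0.05 to 0.47. All 4 had HD mouse 1 lowest.

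These differences rest in part on HD mouse 1 and on the scaling. Without HD mouse 1 the difference was 0.23 for Hoxd13, 0.28 for Hoxd3, 0.16 for Hoxb1 and 0.13 for Hoxd10. Leaving out the mouse numbered 1 in both groups, where cortical neuron genes were lowest, gave 0.22 for Hoxd13, 0.23 for Hoxd3, 0.09 for Hoxb1 and 0.13 for Hoxd10. With no scaling Hoxd13 was at 0.38, Hoxd3 at 0.27, Hoxb1 at 0.14 and Hoxd10 at 0.0058.

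**Figure D3:**
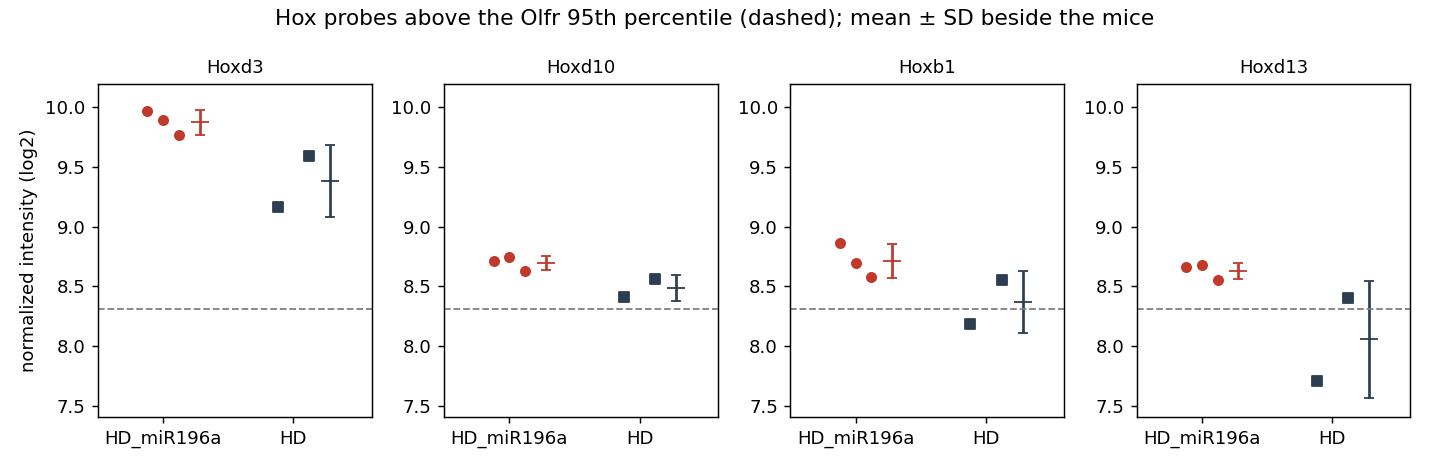
Normalized intensity (log2) of Hoxd3, Hoxd10, Hoxb1 and Hoxd13 in each of 3 HD_miR196a mice (circles, left) and 2 HD mice (squares, right, mouse 1 first), with mean ± SD beside the points and the Olfr 95th percentile (8.31) dashed. The HD_miR196a points are above both HD points in each panel, and HD mouse 1 is the lowest of the 5.

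The Hox probes were more often higher than lower in HD_miR196a mice, 28 of 40 (70%) against 49.3% of all probes and 57.4% of Olfr probes, with a median difference of 0.08, while with no scaling 15 were higher and the median was -0.07. The deposited medians were 160.0 to 166.3 in HD_miR196a mice and 184.3 to 185.6 in HD mice. Leaving out scaling moved the median of all probes to -0.20, and relative to that median Hox probes were at 0.13, with 31 of 40 above it. The groups did not overlap for 11 of 40 Hox probes (27.5%), against 20.3% of all probes. They did not overlap for 10 Hox probes that were higher in HD_miR196a mice (25%), where the share over all probes was 9.96% and over Olfr probes 15.8%. For 1, Hoxa7, they did not overlap in the lower direction, where the share over all probes was 10.3%. With no scaling 1 Hox probe (Hoxb8) was apart upwards and 7 downwards, against 1.76% and 38.1% of all probes. No test of the set was made, because its members were chosen with results of these data known.

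When any 1 mouse was left out, the Hox median was 0.08 to 0.14, with 26 to 28 of 40 probes higher. HD mouse 1 was the lowest of the 5 mice for 14 of 40 Hox probes (35%), against 17.8% of all probes and 22.1% of Olfr probes. The median deviation of Hox probes from their 5-mouse mean was 0.04, 0.07 and 0.01 in the HD_miR196a mice, against -0.10 and -0.02 in the HD mice. Over all probes it was between -0.0012 and 0.0133 in every mouse. Over Olfr probes it was 0.06, 0.01 and 0.04 in the HD_miR196a mice, against -0.02 and 0 in the HD mice. For vomeronasal probes these values were 0.06, 0.02 and 0.03, against -0.12 and -0.04. The split between the groups was therefore not particular to Hox probes. Left without either mouse numbered 1, Hox probes kept a median difference of 0.09, with 26 of 40 higher.

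**Figure D4:**
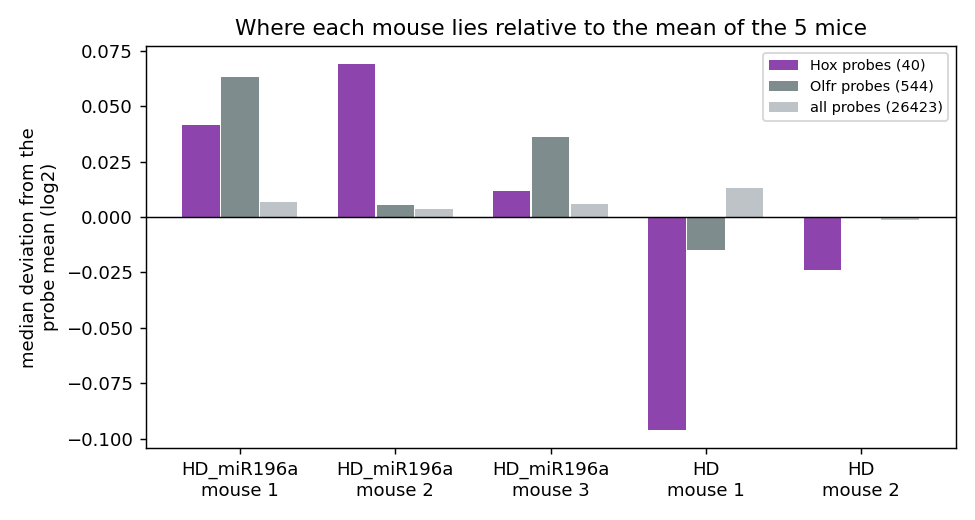
Median over probes of a mouse's deviation from the mean of the 5 mice (log2 scale, vertical axis), for 40 Hox, 544 Olfr and all 26423 probes, with a set of bars per mouse (3 HD_miR196a left, 2 HD right). Hox bars are above 0 in the 3 HD_miR196a mice and below 0 in both HD mice, with the longest, at -0.10, in HD mouse 1. Olfr bars are also above 0 in the 3 HD_miR196a mice, and are at -0.02 in HD mouse 1 and 0 in HD mouse 2.

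After quantile normalization, probes of paralogue groups 1 to 4 were higher in HD_miR196a mice for 9 of 12, groups 5 to 8 for 8 of 12 and groups 9 to 13 for 11 of 16. The clusters gave 8 of 10 (Hoxa), 9 of 11 (Hoxb), 6 of 10 (Hoxc) and 5 of 9 (Hoxd). Median differences were 0.09, 0.10, 0.02 and 0.21 in that order of clusters.

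Among the anterior group, Hoxd1 had the largest difference of any Hox probe, 0.92, at a signal near the floor. It measured 3.50, 4.51 and 1.99 in HD_miR196a mice and 3.02 and 0.51 in HD mice as deposited intensity, and the groups overlapped. HD mouse 2 was low, and the difference was 0.10 without it and 1.74 without HD mouse 1. Hoxc4 differed by -0.25, and 1 mouse stood apart. Its deposited intensity was 211, 204 and 68.0 in HD_miR196a mice against 219 and 169 in HD mice, and without HD_miR196a mouse 3 the difference was 0.30. HD_miR196a mouse 3 was lower than each other mouse by over 1 on the log2 scale at 275 probes (1.04%), of which Hoxc4 was the single Hox probe.

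Hoxb3, which acts in the hindbrain, gave opposite signs on its 2 probes, although both were lower with no scaling (-0.08 and -0.64). The brighter probe measured 195, 219 and 241 in HD_miR196a mice and 214 and 246 in HD mice, a log2 difference of 0.10 with an interval from -0.22 to 0.41. The dimmer probe, below the Olfr median, differed by -0.41 with an interval from -1.07 to 0.25. The Hoxb3 gene overlaps Hoxb4 and Mir10a in RefSeq, and the transcripts these probes bind are not given here. Hoxa3, Hoxa4, Hoxa2 and Hoxb2 differed by 0.30, 0.10, 0.06 and 0.09. Hoxb4 and Hoxd4 differed by 0.01 and -0.03.

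In the middle group, Hoxa5 and Hoxb5, which act in the neck and chest region, and Hoxc6 had small spreads. Hoxb5 measured 7.26, 7.31 and 7.36 in HD_miR196a mice and 7.17 and 7.11 in HD mice on the log2 scale, without overlap. Its difference was 0.17 ± 0.09 (SE), about 1.13-fold, with an adjusted p of 0.979 (limma). Hoxa5 differed by 0.12 and Hoxc6 by 0.08, also without overlap. With no scaling Hoxb5 differed by 0.0033, Hoxa5 by -0.05 and Hoxc6 by -0.07, with the sign turned for the last 2. Hoxc5, below the Olfr median, differed by -0.27 with overlap. Hoxa6, Hoxb6 and Hoxb7 differed by 0.09, 0.08 and -0.04.

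In the posterior group, Hoxb9 measured 6.85, 6.67 and 6.44 in HD_miR196a mice and 6.43 and 6.24 in HD mice, a difference of 0.32 with an interval from -0.09 to 0.73. Hoxc10, a lumbar patterning gene, measured 7.39, 7.25 and 7.25 in HD_miR196a mice and 6.93 and 7.23 in HD mice, and the HD_miR196a mice were all above the HD mice by a small margin. Its difference was 0.22, with an interval from -0.12 to 0.56. Hoxd12 had the most negative difference, -0.65. It measured 3.50, 3.37 and 2.89 in HD_miR196a mice and 3.22 and 4.58 in HD mice, so HD mouse 2 stood above the rest. Without that mouse the difference was 0.04, with the sign turned, and without HD mouse 1 it was -1.32. Hoxa9 differed by 0.41 and Hoxc9 by 0.35, both below the Olfr median and with overlap. Hoxc12, Hoxc13 and Hoxd9 were lower on average, by -0.26, -0.14 and -0.13. Hoxa10, Hoxa11, Hoxa13, Hoxb13, Hoxc11 and Hoxd11 differed by 0.11, 0.04, -0.08, 0.26, 0.01 and 0.22, and each had overlapping groups.

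Noncoding genes of the clusters on the array were also near background. The probe of Mir196b, whose mature product has the seed shown above, had deposited intensities of 82.5, 79.1 and 5.54 in HD_miR196a mice and of 78.5 and 58.2 in HD mice, so HD_miR196a mouse 3 stood apart, as it did for Hoxc4. Which form of the transcript that probe binds is not given here. After normalization Mir196b measured 6.47, 6.35 and 2.56 in HD_miR196a mice and 6.23 and 5.76 in HD mice. The log2 difference of -0.87 came from HD_miR196a mouse 3, since the other 2 HD_miR196a mice were above both HD mice. Mir10a differed by -0.09, and its deposited intensity was at most 5.03 in any mouse. Of the listed long noncoding RNAs, 2 of 12 had probes. Hoxaas3, antisense in the Hoxa cluster, differed by -0.45 and Hoxa11os by -0.61, with overlap between groups.

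The promoters of the Hox genes found in the RefSeq table were described by their CG dinucleotides, the substrate of DNA methylation, which the choice of genes did not use. In RefSeq windows of 250 bases before to 50 after the start, 24 windows of 22 Hox genes had a median of 14.5 CG and a range from 4 to 45, against medians of 1 in 948 Olfr windows and 7 in all 32851. The ratio of observed to expected CG was above 0.6 in 12 of the 24 Hox windows (50%), 0.527% of Olfr windows and 35.8% of all. The motif TATAAA, on either strand, was in 16.7% of Hox windows, 41% of Olfr windows and 13.6% of all. A match is a description of the sequence.

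The 250 upstream bases of Hoxd3, the Hox probe with the highest percentile among Olfr probes, and of Hoxb8, whose probe was near the floor, are shown with each CG in capitals, on the plus strand of GRCm38.p6 (RefSeq), chr2:74711743-74711992 and chr11:96281655-96281904.
Hoxd3: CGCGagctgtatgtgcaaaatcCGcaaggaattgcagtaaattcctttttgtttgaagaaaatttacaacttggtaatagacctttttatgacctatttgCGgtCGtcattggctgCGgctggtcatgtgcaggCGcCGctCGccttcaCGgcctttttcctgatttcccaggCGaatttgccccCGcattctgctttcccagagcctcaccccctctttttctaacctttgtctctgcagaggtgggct
Hoxb8: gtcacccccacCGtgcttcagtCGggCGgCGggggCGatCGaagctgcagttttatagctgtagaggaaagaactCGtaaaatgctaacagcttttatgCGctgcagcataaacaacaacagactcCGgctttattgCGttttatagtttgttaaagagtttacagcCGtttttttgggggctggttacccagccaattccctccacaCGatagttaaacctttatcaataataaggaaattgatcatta
Both stretches held 12 CG, while the windows that run on to 50 bases after the start held 20 for Hoxd3 and 13 for Hoxb8.

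None of the genes listed as partners of Hox proteins passed the test. Of 8 measured genes on the cofactor list, mostly of the Pbx and Meis families, which bind DNA together with Hox proteins, 5 were above the Olfr 95th percentile (39.6% of all probes were), 2 were higher, 6 were lower and 0 passed the test. On the log2 scale Pbx2 averaged 13.70 ± 0.04 in HD_miR196a mice, against 13.60 ± 0.10 in HD mice (SD). For Pbx3 these were 11.58 ± 0.24 against 11.70 ± 0.08. Meis1 was at 9.63 ± 0.31 against 9.57 ± 0.25, and Meis2, a striatal transcription factor, at 7.97 ± 0.14 against 8.02 ± 0.24. The Meis2 probe lay below the Olfr 95th percentile in every mouse.

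Polycomb genes, which encode the repressors of Hox clusters, had 35 probes for 28 genes, 21 higher and 14 lower, with a median difference of 0.01 and 0 past the test. Rnf2, a Polycomb ubiquitin ligase, averaged 9.18 ± 0.16 in HD_miR196a mice against 9.55 ± 0.12 in HD mice (SD, limma adjusted p = 0.979), and 1 of the 3 Phc3 probes differed by -0.24. Phc1 had the most negative difference on the list, -2.70, with a deposited intensity of 44.0 in HD mouse 1 and values below 0 in the other 4 mice. Without HD mouse 2, where HD mouse 1 alone stands for its group, Phc1 was 1 of 3 probes that limma called. The methyltransferase gene Ezh2 differed by -0.04. The Trithorax group and histone demethylases, which act in the opposite sense, were higher on 9 of 12 probes (11 genes) with a median of 0.03. Rbbp5 and Kmt2b, subunits of H3K4 methyltransferases, differed by 0.24 (on 1 of 2 Rbbp5 probes) and 0.15.

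Retinoic acid genes, whose signal switches on anterior Hox genes in the embryo, had 15 probes for 14 genes, 8 higher and 6 lower, with the Dhrs3 probe at the floor in all mice. Aldh1a1, a retinoic acid synthesis enzyme, differed by 0.30 and the receptor gene Rxrg by 0.38. Homeobox relatives and early regulators of the clusters were higher for 7 of 11, with a median of 0.05. Cdx1 and Cdx2, activators of Hox genes in the embryo, differed by 0.93 and 0.18 at signals below the Olfr 95th percentile. In each of these lists 0 probes passed the test over all probes.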

How the data were processed

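Per the labels, total RNA of striatum was amplified, labelled with Cy5 and hybridised, and the authors deposited 1 linear intensity per probe and mouse, combining 2 technical repeats. Some deposited intensities are below 0. Scanner, software, background correction and scaling: not given in the sources used. Medians per mouse were 160.0 to 185.6, and 312 to 370 values per mouse were below 1.

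The intensities were quantile normalized, floored at 1 and log2 transformed. Groups came from the sample titles. All 26423 probes were fitted with limma 3.58.1 (lmFit, eBayes, 3 residual and 1.75 prior degrees of freedom) in R 4.3.3, HD_miR196a minus HD, two-sided, with Benjamini-Hochberg adjustment over all probes. The number of arrays limits the precision. The fit was tested on simulated data.

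Probe symbols came from the platform table. Of 20377 named probes, 18213 matched a RefSeq symbol (GRCm38.p6) directly, 2126 through a synonym and 38 not at all, and 6046 had no name. Gene coordinates of that table are not printed.

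The Hox genes and the lists were chosen with earlier results of these data known, and the microRNA genes of the clusters after their values were seen. Named genes are the 4 miR-196 targets, probes above the Olfr 95th percentile or at an unadjusted p under 0.05, Hox genes with 2 probes, the 5 largest differences each way, and in every list the 2 genes of lowest p, with Meis1, Meis2 and Pbx3, and 1 further gene that is not reported here. The remaining Hox genes are given by their differences, and Ezh2 and Phc1 were added after their values were seen. Alternatives were other scalings, floors and variance models, a filter on dim probes, array weights, each mouse left out, the mouse number as a block, other background measures and values per gene. Target sites were not searched.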

Additional observations from a re-analysis of the deposited data

How the results depend on the processing

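Over 525 values of Hox probes under alternatives, 457 kept their sign, 68 changed sign or became 0 without a call in either fit, and 0 gained a call. The number of Hox probes above the background measure was 4 throughout, 5 with the Olfr 90th percentile and 3 with vomeronasal probes. With no scaling the Hox median became -0.0653, the number higher 15, the target median -0.126 and the number at an unadjusted p under 0.05 became 1 of 40, against 13.8% of all probes. With the floor at the Olfr median these were 0 for the Hox median, 18 higher (45%, against 40.7% of all probes) and 4 of 40 at an unadjusted p under 0.05, against 5.71% of all probes. The target median was -0.0925 with 1 probe per gene and -0.0781 with the mean of the probes of a gene. Among the 24 Hox probes above the Olfr median, 17 were higher. The count of 0 called probes became 2 with the higher floor, 3 with the offset of 16, 3 with trend and robust settings and 2 at an adjusted p under 0.10, none of them Hox probes. When each mouse in turn was left out, 0 to 3 probes were called (3 without HD mouse 1 and 3 without HD mouse 2). The Hox median was then 0.0786 to 0.142 (0.141 without HD_miR196a mouse 1, 0.142 without HD mouse 2) and the target median -0.0513 to 0.0491. Hox probes at an unadjusted p under 0.05 numbered 1 to 4, with 1 without HD_miR196a mouse 2 (3.18% of all probes), and 4 without HD_miR196a mouse 3 (5.47%) or without HD mouse 1 (4.45%). A lone HD mouse is assumed there to vary like the other group. The cause of these shifts was not tested.

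Mouse numbers 1 and 2 occur in both groups, and deviations of equal numbers from their group means correlated at 0.236 and 0.17 across probes, which are not independent. Whether numbers pair the mice is not given here. With the replicate block 0 probes were called, 5 Hox probes had an unadjusted p under 0.05 (7.64% of all probes) and the Hox median was 0.08. The setting without mouse 1 of each group was chosen after seeing the data. Signals near background limit all statements on Hox genes.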
